A study of Mus musculus with 8 samples.

Results

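The messenger RNAs of the kinesin motors were followed in mouse skin, in a comparison of irradiated areas with nonirradiated areas. A gene counted as a kinesin if its symbol began with Kif and a digit or was Kifc1, Kifc2 or Kifc3, and if its mean over the 8 libraries was at least 0.5 FPKM. FPKM is a count of fragments divided by the length of the transcript in kilobases and by the depth of the library, so it scales a level to the length of the gene. Of 40 kinesin genes measured, 35 reached that mean, out of 13324 genes that did so and 22564 genes in all. The 35 were divided by textbook function into 12 mitotic kinesins (Kif2c, Kif4, Kif11, Kif14, Kif15, Kif18a, Kif18b, Kif20a, Kif20b, Kif22, Kif23 and Kifc1) and 23 other kinesins. Kif26a was the lowest gene to be included, at a mean of 0.511 FPKM, and Kif17 the highest to be left out, at 0.229 FPKM. Kif5a and Kif19a had means of 0.186 and 0.097 FPKM, and Kif12 and Kif2b were listed at 0 in all 8 libraries.

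The irradiated group was skin of male C57Bl/6 mice aged 4 weeks, taken 24 h after a single local dose of 35 Gy from a 6 MeV electron beam at 750 cGy/min, with 4 libraries. The nonirradiated group was skin of areas outside the beam from mice of the same strain, with the same protocol text for sex, age and collection, also with 4 libraries. No transgene or mutant allele is named for either group. The labels do not say whether each library came from a mouse of its own, so every p-value below reflects library-to-library spread, which may be technical in part.

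Kinesins are motor proteins that burn ATP to walk along microtubules or to take them apart at their ends. Mitotic kinesins are made mostly in dividing cells, where they build the spindle, move chromosomes and help to cut the cell apart, whereas transport kinesins carry vesicles, mitochondria, messenger RNA and parts of the cilium in cells that do not divide as well. In skin, dividing cells lie in the basal layer of the epidermis and, in growing hair follicles, in the hair matrix.

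All 12 mitotic kinesins had lower fitted levels in irradiated skin (11 of 12 under quantile normalization, where Kif14 was at 0.02 on the log2 scale), while the other 23 were spread on both sides of 0. Summed over the 12 genes, mitotic kinesins came to 42.3, 51.2, 26.5 and 39.6 FPKM in irradiated replicates 1 to 4, against 91.0, 73.6, 71.8 and 107 FPKM in nonirradiated replicates 1 to 4. Every irradiated library lay below every nonirradiated one. The sums averaged 39.9 ± 10.3 FPKM in irradiated and 85.7 ± 16.4 FPKM in nonirradiated skin (SD, n = 4 each), a ratio of 0.465. Summed over the 23 other kinesins, levels were 414, 353, 387 and 323 FPKM in irradiated and 310, 266, 284 and 363 FPKM in nonirradiated libraries, a ratio of means of 1.21 with overlapping groups. Skin tissue was measured in bulk, so fewer cells of a type and less RNA per cell cannot be told apart.

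No kinesin passed the test across all genes. That test was limma, two-sided, on log2(FPKM + 1), with p-values adjusted over the 13324 genes by the Benjamini-Hochberg method and a threshold of 0.05. It called 17 genes lower (0.128%) and 16 higher (0.12%) in irradiated skin. The log2 changes of the mitotic kinesins ran from -1.87 to -0.57 with a median of -1.13, against a median of -0.11 over all genes tested, of which 56.1% lay below 0. Among the 12 mitotic kinesins 4 (Kif23, Kif20a, Kif18a and Kif20b) had an unadjusted p under 0.05 and a lower level in irradiated skin, where 7.21% of all genes tested did. In 3 of the 12 the irradiated libraries all lay below the nonirradiated ones, as they did for 4.48% of all genes. The 23 other kinesins had a median log2 change of -0.04, or of 0.0 with Kif6, which was listed at 0 in every irradiated library, set to no change. Of these 23 genes 12 lay below 0 and 11 above, and 2 had an unadjusted p under 0.05, both lower, while none was higher with such a p, where 5.68% of all genes were. Above 0 lay 43.9% of all genes. Some members reached the mean of 0.5 FPKM only through the group where they are high, so their side of 0 says little. These were Kif6 (means of 0 FPKM in irradiated and 1.68 FPKM in nonirradiated skin), Kif26a (0.199 and 0.823) and Kif27 (1.08 and 0.394).

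**Figure D1:**
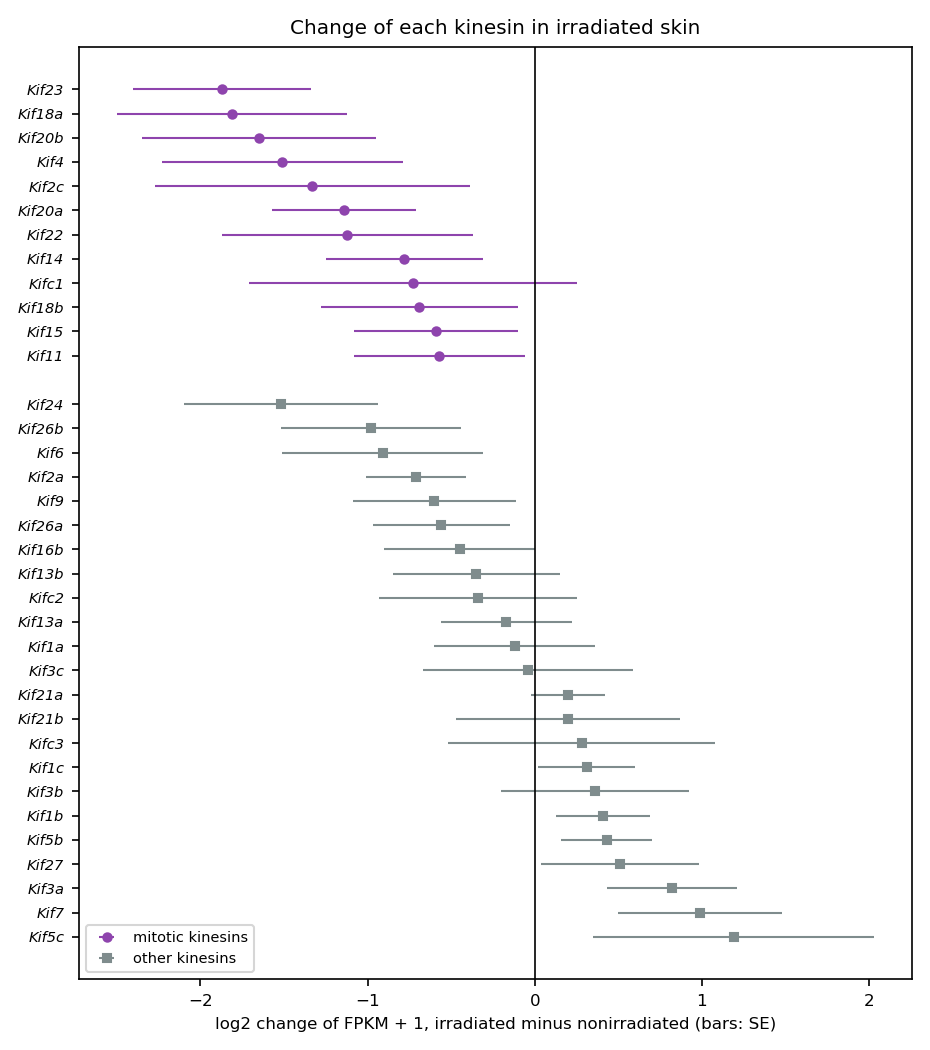
Log2 change, irradiated minus nonirradiated skin on the log2(FPKM + 1) scale, of each of the 35 kinesins, with bars of 1 standard error from limma (n = 4 libraries each). The 12 mitotic kinesins all lie left of 0, between -1.87 and -0.57 (under quantile normalization Kif14 was at 0.02), and the 23 other kinesins run from -1.52 to 1.19.

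Libraries differed in how their reads were spread over genes. The deposited estimated counts come in steps, and dividing by the step gave 5545446 to 6626648 reads in irradiated and 5036276 to 6259828 reads in nonirradiated libraries. Genes with few reads piled up at a typical read count, called here the commonest low read count, of 19.97 to 78.35 reads in irradiated and 4.49 to 15.63 reads in nonirradiated libraries. Reads divided by that count and rounded, called units, are assumed here, without a check, to follow the number of distinct fragments. Units over all genes were 81992, 163287, 331994 and 75710 in irradiated and 384705, 1121222, 1309517 and 386360 in nonirradiated libraries. A level of exactly 0 was listed for 23.3%, 14.2%, 7.72% and 31.0% of all genes tested in irradiated replicates 1 to 4, and for 4.36%, 2.30%, 1.98% and 10.1% in nonirradiated replicates 1 to 4. Between 2 and 20 of 92 ribosomal and small ribonucleoprotein genes, which every cell uses, were among them in irradiated libraries and at most 1 in nonirradiated libraries. A mitotic kinesin listed at 0 is therefore described by its values in each library. Of the 12 mitotic kinesins 4, 2, 1 and 5 were listed at 0 in irradiated replicates 1 to 4, and 0, 0, 0 and 1 in nonirradiated replicates 1 to 4. The part of these library differences in the results was not tested.

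Kinesins of the midzone and midbody, which act as the cell divides into daughters, included the member with the smallest p. Kif23, the motor subunit of centralspindlin (chr9:61915905-61946774, minus strand), had 1.24, 1.15, 1.58 and 4.33 FPKM in irradiated libraries, against 7.81, 8.19, 7.04 and 17.4 FPKM in nonirradiated libraries. Replicate 4 was the highest library of each group, and the highest irradiated value stayed below the lowest nonirradiated one. Kif23 averaged 2.08 ± 1.51 FPKM in irradiated and 10.1 ± 4.86 FPKM in nonirradiated skin (SD, n = 4 each), 4.87 times lower in irradiated skin, with a log2 change of -1.87 (SE 0.53, limma adjusted p = 0.165). Behind these values stood 6 units in irradiated and 142 units in nonirradiated libraries.

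Kif20a carries the chromosomal passenger complex to the central spindle. Its levels were 3.95, 3.61, 4.55 and 7.11 FPKM in irradiated libraries, against 16.4, 9.06, 8.31 and 14.1 FPKM in nonirradiated libraries, again without overlap. The means were 4.81 ± 1.58 FPKM in irradiated and 11.97 ± 3.91 FPKM in nonirradiated skin (SD, n = 4 each), and the log2 change was -1.14 (SE 0.43, limma adjusted p = 0.292). Exons of Kif20a and of Cdc23 overlap on opposite strands by 1271 bp, and since the use of strand in counting is not given in the sources used here, reads of the pair could have been mixed.

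Kif20b, a motor that takes part in the final separation of daughter cells (chr19:34922361-34975745, plus strand), had 0.142, 3.27, 2.89 and 12.1 FPKM in irradiated libraries, against 10.5, 7.18, 11.4 and 19.97 FPKM in nonirradiated libraries. Irradiated replicate 4 lay within the nonirradiated range, and the other 3 irradiated libraries lay below it. The log2 change was -1.65 (SE 0.70, limma adjusted p = 0.359). Kif14, which binds citron kinase at the midbody (chr1:136466343-136531511, plus strand), was low in all libraries, at 1.08, 0.197, 0.780 and 1.37 FPKM in irradiated and 1.51, 2.86, 2.86 and 1.44 FPKM in nonirradiated skin. Its groups did not overlap, but the gap was small, and the log2 change was -0.78 (SE 0.47, limma adjusted p = 0.523).

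**Figure D2:**
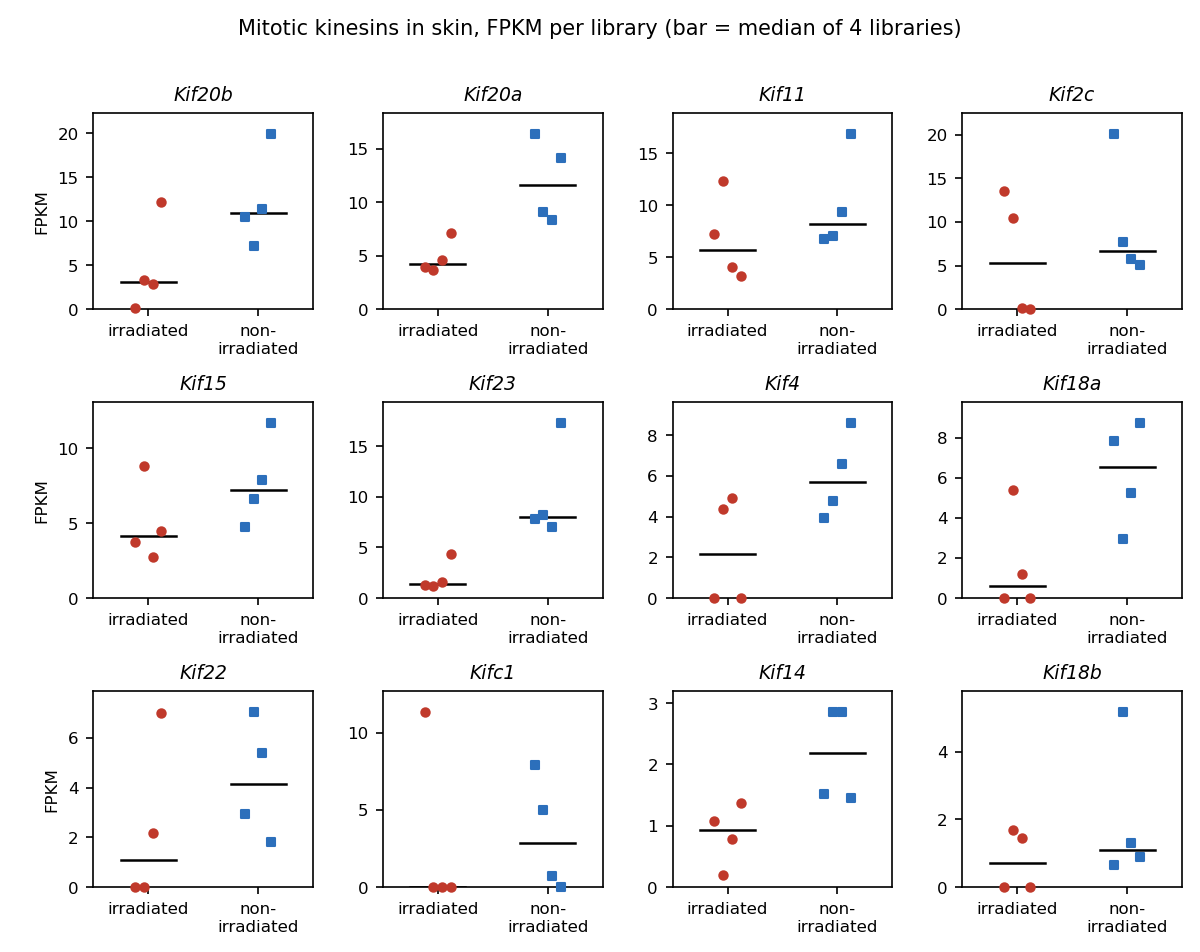
Level of each mitotic kinesin in FPKM, 1 point per library and a bar at the median, with irradiated skin left of nonirradiated skin (n = 4 libraries each). In Kif23, Kif20a and Kif14 no irradiated point reaches the nonirradiated points. In all the other panels, Kif11, Kif2c and Kifc1 among them, the ranges of both groups overlap.

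Among kinesins that set up the bipolar spindle, Kif11 and Kif15 had the log2 changes nearest to 0 of the mitotic kinesins. Kif11, the motor that slides spindle microtubules apart and pushes the poles away from each other (chr19:37376403-37421859, plus strand), had 7.20, 12.3, 4.08 and 3.17 FPKM in irradiated and 6.70, 6.99, 9.35 and 16.9 FPKM in nonirradiated libraries. Irradiated replicates 1 and 2 lay inside the nonirradiated range, and replicates 3 and 4 below it. The log2 change was -0.57 (SE 0.51, limma adjusted p = 0.682). Kif15, which can share the work of Kif11 (chr9:122951046-123018733, plus strand), had 3.75, 8.80, 2.71 and 4.50 FPKM in irradiated and 4.73, 6.603, 7.85 and 11.7 FPKM in nonirradiated libraries. Only irradiated replicate 2 lay inside the nonirradiated range, and the log2 change was -0.59 (SE 0.49, limma adjusted p = 0.664).

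Kifc1 walks to the minus end and gathers microtubules at the poles (chr17:33875659-33890661, minus strand). It had 11.4, 0, 0 and 0 FPKM in irradiated and 7.89, 5.03, 0.743 and 0 FPKM in nonirradiated libraries. The highest of the 8 values came from irradiated skin, and just 1 unit stood behind the irradiated group and 13 behind the nonirradiated group. In the annotation 38.6% of the 50-base stretches of Kifc1 also occur in Kifc5b, so its value depends on how such reads were assigned.

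Motors that act on chromosomes and on the ends of their microtubules included most of the zeros. Kif4, a chromokinesin of chromosome arms and the central spindle (chrX:100625737-100727214, plus strand), had 0, 4.36, 4.89 and 0 FPKM in irradiated and 3.91, 4.78, 6.56 and 8.61 FPKM in nonirradiated libraries. Irradiated replicates 2 and 3 lay within the nonirradiated range, and the log2 change was -1.51 (SE 0.72, limma adjusted p = 0.415). Kif22, a chromokinesin that pushes chromosome arms away from the poles (chr7:127027729-127042471, minus strand), had 0, 0, 2.17 and 7.003 FPKM in irradiated and 2.95, 7.06, 5.38 and 1.80 FPKM in nonirradiated libraries. Its groups overlapped and 3 units stood behind the irradiated values, with a log2 change of -1.12 (SE 0.75, limma adjusted p = 0.575).

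Kif18a dampens the movements of chromosomes at the spindle's middle (chr2:109280738-109341747, plus strand). Its levels were 0, 5.41, 1.21 and 0 FPKM in irradiated and 7.81, 2.94, 5.26 and 8.75 FPKM in nonirradiated libraries. Irradiated replicate 2 exceeded 2 of the 4 nonirradiated libraries, and the log2 change was -1.81 (SE 0.69, limma adjusted p = 0.306). Kif18b, its relative that trims astral microtubules (chr11:102905529-102925124, minus strand), had 0, 1.68, 1.44 and 0 FPKM in irradiated and 0.644, 5.18, 1.30 and 0.896 FPKM in nonirradiated libraries. The groups overlapped, with a log2 change of -0.69 (SE 0.59, limma adjusted p = 0.671). Exons on the opposite strand overlap Kif4 (Pdzd11, 832 bp) and Kif18a (Mettl15, 11 bp), which leaves their values uncertain in the same way as for Kif20a.

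Kif2c, which takes microtubules apart at centromeres (chr4:117159639-117182639, minus strand), split the irradiated group. It had 13.5, 10.5, 0.140 and 0 FPKM in irradiated and 20.1, 7.71, 5.74 and 5.11 FPKM in nonirradiated libraries. Irradiated replicates 1 and 2 stood above 3 of the nonirradiated libraries, and replicates 3 and 4 below all of them. The log2 change was -1.33 in FPKM (SE 0.94, limma adjusted p = 0.594) but -0.15 in the recovered reads (edgeR quasi-likelihood, irradiated minus nonirradiated). FPKM per read of Kif2c varied 3.19-fold between libraries.

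No library carried the difference alone. Among nonirradiated libraries the highest mitotic kinesin came from replicate 4 in 6 genes, from replicates 1 and 2 in 3 genes each, and from replicate 3 in 0. Among irradiated libraries it came from replicate 4 in 5 genes, replicate 2 in 4, replicate 1 in 2 and replicate 3 in 1. Leaving out each library in turn kept 12 of 12 mitotic kinesins below 0, with a median log2 change between -1.31 and -0.96. The same count held without irradiated replicates 1 and 4, the libraries with the highest commonest low read counts, at a median of -1.19.

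Per library, the mitotic kinesins also separated the groups on scales that do not use transcript length. They took up 163, 285, 151 and 235 RPM (recovered reads scaled to 1000000 in all) in irradiated and 355, 412, 452 and 638 RPM in nonirradiated libraries, a ratio of means of 0.449. The groups did not overlap there either. In units per 100000 they came to 17.1 (exact 95% binomial interval 9.34 to 28.6), 28.8 (21.1 to 38.3), 15.1 (11.2 to 19.9) and 23.8 (14.1 to 37.6) in irradiated libraries. The nonirradiated libraries had 35.6 (29.9 to 42.1), 41.2 (37.5 to 45.1), 45.2 (41.6 to 49.0) and 63.7 (56.0 to 72.1) units per 100000. The intervals of irradiated replicates 2 and 4 reached into those of nonirradiated replicates 1 and 2, and all these intervals cover counting error only.

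**Figure D3:**
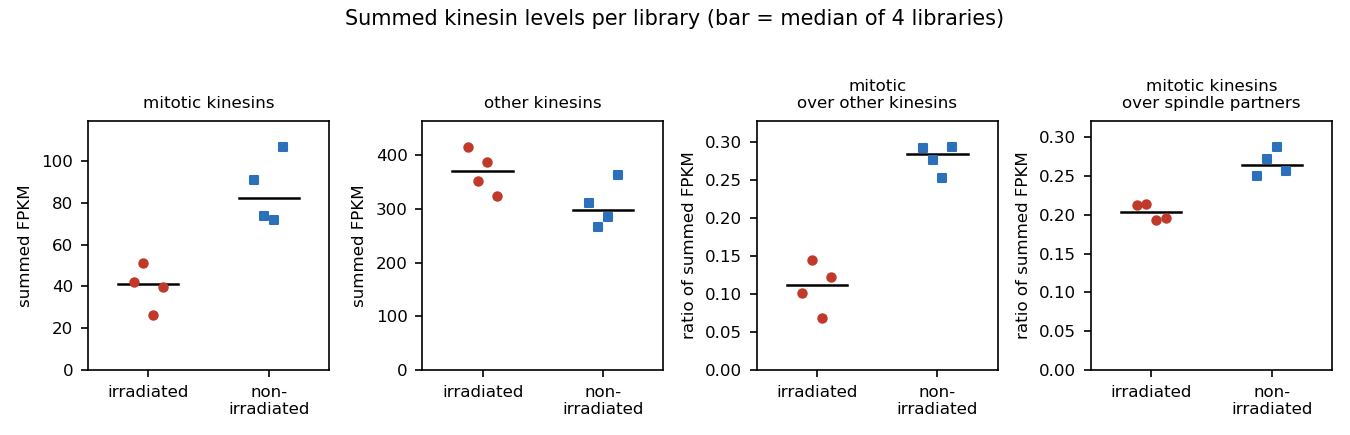
Summed FPKM of the mitotic and of the other kinesins in each library, and the ratio of the mitotic sum to the other kinesins and to 28 spindle partners, irradiated left of nonirradiated (points are libraries, n = 4 each, bars their median). Mitotic sums lie between 26.5 and 51.2 in irradiated and between 71.8 and 107 in nonirradiated libraries, the sums of the other kinesins overlap, and both ratios are lower in every irradiated library.

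The ratio of the mitotic to the other sum was 0.102, 0.145, 0.0683 and 0.123 in irradiated and 0.293, 0.276, 0.253 and 0.294 in nonirradiated libraries. In FPKM the nonirradiated ratios lay close together and the irradiated ratios were all lower. Means were 0.110 ± 0.0327 in irradiated and 0.279 ± 0.0192 in nonirradiated skin (SD, n = 4 each). In RPM the ratio was 0.0793, 0.133, 0.0686 and 0.125 in irradiated and 0.206, 0.227, 0.245 and 0.346 in nonirradiated libraries. Irradiated ratios were again all lower there, but the nonirradiated ratios spread more widely (SD 0.0617).

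With tests on read numbers a few members passed. DESeq2 on the recovered reads called 2.88% of genes lower, among them Kif23 (log2 change -2.37, adjusted p = 0.000957) and Kif20a (-1.36, adjusted p = 0.00637). edgeR's quasi-likelihood test on units, which could test 6 of the 12 mitotic and 11 of the 23 other kinesins, called 4.94% of genes higher, with no kinesin, and 3.97% lower, among them Kif23 (-2.34, adjusted p = 0.0107) and Kif20b (-1.69, adjusted p = 0.0481). A filter kept only genes with enough units in at least 4 libraries for that test. Kif23 had 0, 1, 3 and 2 units in irradiated and 13, 49, 48 and 32 in nonirradiated libraries. Kif20b had 0, 4, 8 and 7 units in irradiated and 28, 71, 128 and 61 in nonirradiated libraries. Both entered through the nonirradiated libraries, where they are high, so their calls on units are not support of their own. edgeR on the recovered reads called 0.443% of genes lower, 0.548% higher and no kinesin, with adjusted p = 0.0743 for Kif23 and adjusted p = 0.0954 for Kif20a. The other 9 mitotic kinesins passed none of these tests, and Kif18a had no adjusted p from DESeq2.

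The promoters of the mitotic kinesins share letters that the grouping did not use. The CHR (cell cycle genes homology region, TTTGAA or TTCAAA on the other strand) is a known element of genes that are switched on late in the cell cycle, and the CCAAT box (CCAAT, or ATTGG on the other strand) is bound by NF-Y. RefSeq promoters on GRCm38.p6, from 250 bases before to 50 bases after a transcription start, were at hand for 29 of the 35 kinesins, all but Kif5b, Kif21b, Kif20a, Kif13b, Kifc2 and Kifc3. A CHR stood in 10 of 11 mitotic kinesins (90.9%), in 3 of 18 other kinesins (16.7%; Kif1a, Kif26b and Kif27) and in 17.9% of all 32851 promoters. Kif18a was the mitotic kinesin without it. A CCAAT box stood in 7 of 11 mitotic kinesins (63.6%), 7 of 18 other kinesins (38.9%) and 37.4% of all promoters. The variant TTTAAA stood in 2 of 11 mitotic kinesins, 0 of 18 other kinesins and 13.2% of all promoters. These are matches of letters, not mapped binding sites, and none of the 13 CHR matches in mitotic promoters overlaps a CCAAT match.

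Promoters of 4 mitotic kinesins, of the midbody (Kif23, Kif20b), the spindle (Kif11) and the chromosome arms (Kif4), are shown to place both motifs, and that of Kif7, the kinesin of the cilium tip, for contrast. Each runs 5′ to 3′ on the strand of the gene, with CHR and CCAAT matches of either orientation in capitals.
Kif23 promoter, chr9:61946750-61947049, minus strand: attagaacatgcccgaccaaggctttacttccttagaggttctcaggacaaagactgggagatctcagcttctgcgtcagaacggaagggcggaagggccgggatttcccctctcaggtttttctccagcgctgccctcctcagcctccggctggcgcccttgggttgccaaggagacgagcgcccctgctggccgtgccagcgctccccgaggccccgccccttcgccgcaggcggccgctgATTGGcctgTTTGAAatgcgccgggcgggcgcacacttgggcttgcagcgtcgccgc
Kif20b promoter, chr19:34922108-34922407, plus strand: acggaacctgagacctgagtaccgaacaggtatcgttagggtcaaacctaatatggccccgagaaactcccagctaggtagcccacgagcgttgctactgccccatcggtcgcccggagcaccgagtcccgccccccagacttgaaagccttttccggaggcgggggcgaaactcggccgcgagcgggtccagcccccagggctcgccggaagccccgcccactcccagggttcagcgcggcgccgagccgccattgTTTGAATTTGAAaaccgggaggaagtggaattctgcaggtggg
Kif11 promoter, chr19:37376132-37376431, plus strand: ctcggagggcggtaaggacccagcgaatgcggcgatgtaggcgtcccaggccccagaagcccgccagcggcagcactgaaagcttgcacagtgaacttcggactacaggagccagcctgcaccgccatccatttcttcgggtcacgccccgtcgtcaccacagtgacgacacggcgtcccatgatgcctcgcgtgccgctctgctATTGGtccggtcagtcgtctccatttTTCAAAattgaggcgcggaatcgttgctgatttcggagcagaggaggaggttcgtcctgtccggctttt
Kif4 promoter, chrX:100625815-100626114, plus strand: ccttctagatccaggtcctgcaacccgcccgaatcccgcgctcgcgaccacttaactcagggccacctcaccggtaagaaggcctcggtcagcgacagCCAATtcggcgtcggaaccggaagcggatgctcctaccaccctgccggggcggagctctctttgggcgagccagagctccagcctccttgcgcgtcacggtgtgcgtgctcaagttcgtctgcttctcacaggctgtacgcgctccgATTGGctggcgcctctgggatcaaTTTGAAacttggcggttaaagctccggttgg
Kif7 promoter, chr7:79715658-79715957, minus strand: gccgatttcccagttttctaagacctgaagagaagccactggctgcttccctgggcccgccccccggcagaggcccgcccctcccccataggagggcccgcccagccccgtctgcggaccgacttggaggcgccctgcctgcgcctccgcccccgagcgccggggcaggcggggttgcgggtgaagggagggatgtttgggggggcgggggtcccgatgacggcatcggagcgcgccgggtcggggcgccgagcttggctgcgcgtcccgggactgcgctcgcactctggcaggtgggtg
In Kif23 the CCAAT box, read as ATTGG, ends 3 bases before the start and the CHR begins at base 3 after it, so the pair lies 4 bases apart. Kif20b holds a pair of CHR matches back to back, beginning at bases 8 and 14 after the start, and no CCAAT box. The Kif7 window holds neither motif.

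The nearest match of 6 other mitotic kinesins to their start is shown with 10 bases on each side, the CHR in capitals, again on the strand of the gene.
Kif15 site, chr9:122951062-122951067, plus strand: gggcgccaaaTTCAAAtctgcggcca
Kif22 site, chr7:127042432-127042437, minus strand: gccccggtaaTTCAAAagagagaagc
Kifc1 site, chr17:33890627-33890632, minus strand: gaggttgaaaTTCAAAagtggcgggt
Kif18b site, chr11:102925116-102925121, minus strand: gaccggctagTTTGAAcgcgccgcgc
Kif2c site, chr4:117178870-117178875, minus strand: aggctgctctTTCAAAcctgagtaat
Kif14 site, chr1:136467620-136467625, plus strand: aggtcctgtcTTTGAAgtctgcagtg
The matches of Kif15 and Kif22 begin 19 and 17 bases before the start, those of Kifc1 and Kif18b at bases 2 and 4 after it, and those of Kif2c and Kif14 lie 103 and 228 bases before it. These are RefSeq starts, which can lie inside the gene spans given above. For Kif2c and Kif14, among others, the match itself lies inside the span, so it is not upstream of the whole gene. Within 60 bases before to 50 bases after the start, a limit chosen after the positions were seen, a CHR began in 8 of 11 mitotic kinesins (72.7%), 2 of 18 other kinesins (11.1%) and 5.5% of all promoters.

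**Figure D4:**
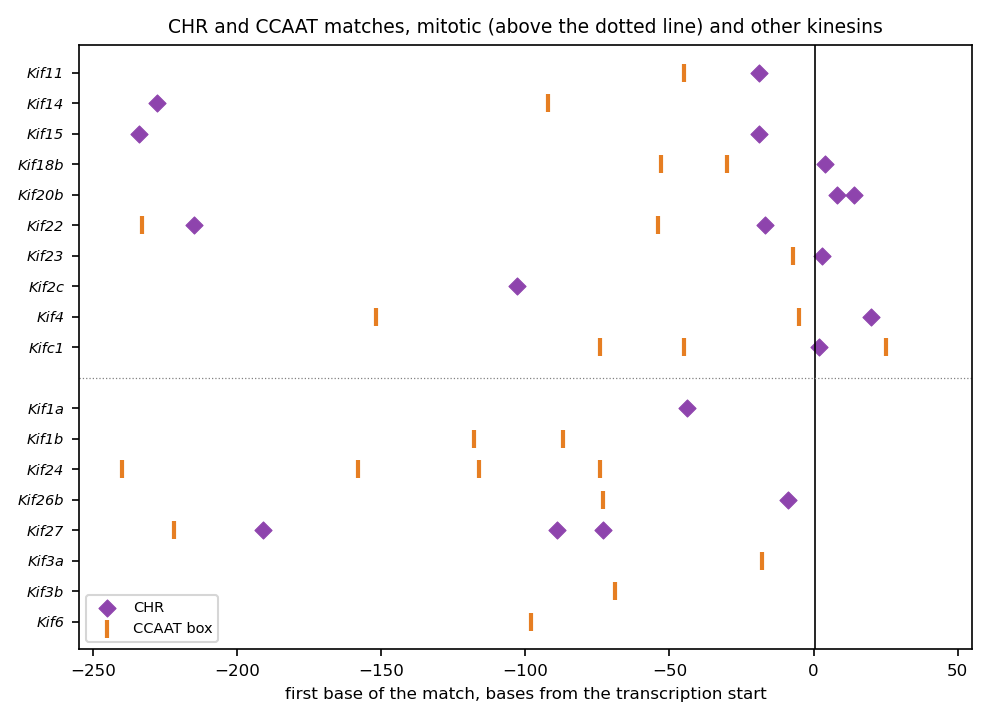
Position of each CHR and CCAAT match in the RefSeq promoters of the kinesins, in bases from the transcription start, with mitotic kinesins above the dotted line and other kinesins below it. Kinesins with no match are not drawn. CHR matches of 8 of 11 mitotic kinesins begin between 60 bases before and 50 bases after the start.

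Partners of the mitotic kinesins mostly had lower levels in irradiated skin as well. Cenpe, the kinetochore kinesin whose name lacks Kif (centromere protein E), had 2.65, 7.97, 4.31 and 0.363 FPKM in irradiated and 9.32, 9.72, 10.9 and 17.2 FPKM in nonirradiated libraries. Its groups did not overlap, and the log2 change was -1.66 (SE 0.60, limma adjusted p = 0.279). Stard9, a kinesin of the spindle poles in human cells, stood at -0.57 on the log2 scale (limma adjusted p = 0.684). Of 28 spindle and cytokinesis genes that work with these motors 27 lay below 0, with a median of -1.29, and none passed the limma test. Unadjusted, 12 of the 28 had p under 0.05 and a lower level, against 7.21% of all genes, and in 9 the irradiated libraries all lay below the nonirradiated ones, against 4.48% of all genes. DESeq2 on reads called 4 of them lower (Ncapd2, Numa1, Prc1 and Tpx2), where it called 2.88% of all genes lower. edgeR on units, which could test 10, called 4 (Incenp, Ncapd2, Numa1 and Prc1; 3.97% of all genes), and edgeR on reads called 1 (Prc1; 0.443% of all genes). Genes can pass the filter on units through the nonirradiated libraries alone, so the calls on units are not support of their own. Cdca8 (borealin), a subunit of the passenger complex, had 0, 0.427, 5.72 and 0 FPKM in irradiated and 13.0, 18.0, 9.32 and 9.52 FPKM in nonirradiated libraries (log2 change -2.89, limma adjusted p = 0.103). Bub1, a kinase of the spindle checkpoint, had 0, 2.52, 2.19 and 0 FPKM in irradiated and 19.8, 7.07, 5.87 and 7.63 FPKM in nonirradiated libraries (log2 change -2.45, limma adjusted p = 0.146). All irradiated values of both genes lay below the nonirradiated ones.

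Relative to these partners the mitotic kinesins differed by scale. Their sum over that of the 28 partners was 0.213, 0.214, 0.194 and 0.196 in irradiated and 0.250, 0.272, 0.287 and 0.257 in nonirradiated libraries in FPKM, without overlap. In RPM the same ratio was 0.288, 0.400, 0.246 and 0.378 in irradiated and 0.300, 0.343, 0.423 and 0.481 in nonirradiated libraries, with overlap.

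Markers of other cells and of dividing cells moved as well. The 8 genes of dividing cells summed to 65.8 to 173 FPKM in irradiated and 224 to 334 FPKM in nonirradiated libraries. Of these genes 8 of 8 lay below 0, where 56.1% of all genes tested did. Birc5, Cdk1 and Ccnb1 among them were also counted with the spindle partners above. Limma called 1 of the 8 lower, where it called 0.128% of all genes lower. That gene was the proliferation marker Mki67, at 22.6 ± 6.14 FPKM in irradiated and 96.6 ± 13.5 FPKM in nonirradiated skin (SD, n = 4 each; log2 change -2.08, limma adjusted p = 0.0133). The 10 genes of hair matrix and root sheath, where hair follicle cells divide and mature, summed to 452 to 924 FPKM in irradiated and 1532 to 2167 FPKM in nonirradiated libraries. Of these 10 of 10 lay below 0, against 56.1% of all genes, and limma called 3 lower, against 0.128% of all genes. The 8 epidermis markers summed to 2579 to 4483 FPKM in irradiated and 1860 to 2589 FPKM in nonirradiated libraries, high in all 8. The 16 markers of skeletal muscle summed to 4891 to 7808 FPKM in irradiated libraries, 6459 FPKM in nonirradiated replicate 1 and 2000 to 2295 FPKM in the other nonirradiated libraries. Not all of them moved the same way: 15 lay above 0 and 1 below, Myh4, at a log2 change of -1.83. Myh4 averaged 133 FPKM in irradiated and 467 FPKM in nonirradiated skin. With the muscle level as a covariate 12 of 12 mitotic kinesins lay below 0, at a median of -1.19, while the median of all genes was -0.27. In that fit most mitotic kinesins were nearer to 0 than without the covariate. These were Kif23 at -1.62, Kif20b at -1.24, Kif4 at -1.14, Kif22 at -0.76, Kif14 at -0.63, Kif11 at -0.29, Kif18b at -0.16 and Kif15 at -0.12. Farther from 0 were Kif20a at -1.41, Kif18a at -1.9, Kif2c at -2.23 and Kifc1 at -2.07. The part of the muscle, hair follicle and dividing cell markers in the kinesin result was not tested. Sums of fibroblast (387 to 457 FPKM in irradiated, 296 to 402 FPKM in nonirradiated), nerve (25.5 to 36.9 and 9.34 to 53.8), leukocyte (28.8 to 99.8 and 40.2 to 55.5) and melanocyte markers (16.6 to 184 and 63.9 to 209) overlapped between groups. Among the melanocyte markers Mlana fell: it was listed at 0 in all 4 irradiated libraries and had 11.3, 7.44, 8.63 and 15.9 FPKM in nonirradiated libraries (limma adjusted p = 0.0182). Of the nerve markers Nefl was listed at 0 in all 8 libraries. Adipocyte markers summed to 1457 to 2329 FPKM in irradiated and 1184 to 1452 FPKM in nonirradiated libraries, just without overlap, and most of that sum was Fabp4. Of the 6 adipocyte markers 3 lay below 0 and 3 above, with a median log2 change of 0.01.

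Among the other kinesins the vesicle and organelle carriers were the most abundant. Kif5b, the widely expressed heavy chain of kinesin-1, averaged 98.4 ± 11.6 FPKM in irradiated and 75.7 ± 28.0 FPKM in nonirradiated skin (SD, n = 4 each). Its values were 97.8, 83.9, 112 and 99.6 FPKM in irradiated and 60.1, 54.7, 71.6 and 116 FPKM in nonirradiated libraries, where replicate 4 stood above all irradiated libraries (log2 change 0.43, SE 0.27, limma adjusted p = 0.542). Kif1b, which carries mitochondria and synaptic vesicle precursors (chr4:149176319-149307693, minus strand), had 93.0, 95.4, 61.8 and 90.5 FPKM in irradiated and 85.2, 40.5, 64.2 and 71.2 FPKM in nonirradiated libraries. Irradiated replicate 3 lay within the nonirradiated range and the other 3 above it (log2 change 0.41, SE 0.28, limma adjusted p = 0.582). In RPM Kif1b had 610, 647, 536 and 605 in irradiated and 486, 391, 431 and 447 in nonirradiated libraries, without overlap, as 4.3% of genes were higher in irradiated skin on that scale. DESeq2 on the reads called Kif1b higher (log2 change 0.42, adjusted p = 0.0241), where it called 2.95% of all genes higher.

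Kif1c, its close relative (chr11:70700548-70731964, plus strand), had 27.7, 17.6, 31.4 and 19.8 FPKM in irradiated and 21.7, 18.1, 15.4 and 20.4 FPKM in nonirradiated libraries. The groups overlapped (log2 change 0.31, SE 0.29, limma adjusted p = 0.697). Kif21a, a kinesin-4 that slows microtubule growth at the cell edge (chr15:90933276-91049948, minus strand), was among the steadiest, at 47.3, 51.7, 52.2 and 40.1 FPKM in irradiated and 40.1, 37.2, 42.5 and 45.9 FPKM in nonirradiated libraries. Its log2 change was 0.20 (SE 0.22, limma adjusted p = 0.748), and it turned to -0.09 under quantile normalization. Ordered by mean FPKM over all libraries, Kif5b, Kif1b, Kif21a, Kif3a, Kif2a and Kif1c led the kinesins, and the first mitotic one, Kif20b, stood at 8.43 FPKM. The values of Kif5b and Kif1b overlapped, and so did those of Kif3a, Kif2a and Kif1c.

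**Figure D5:**
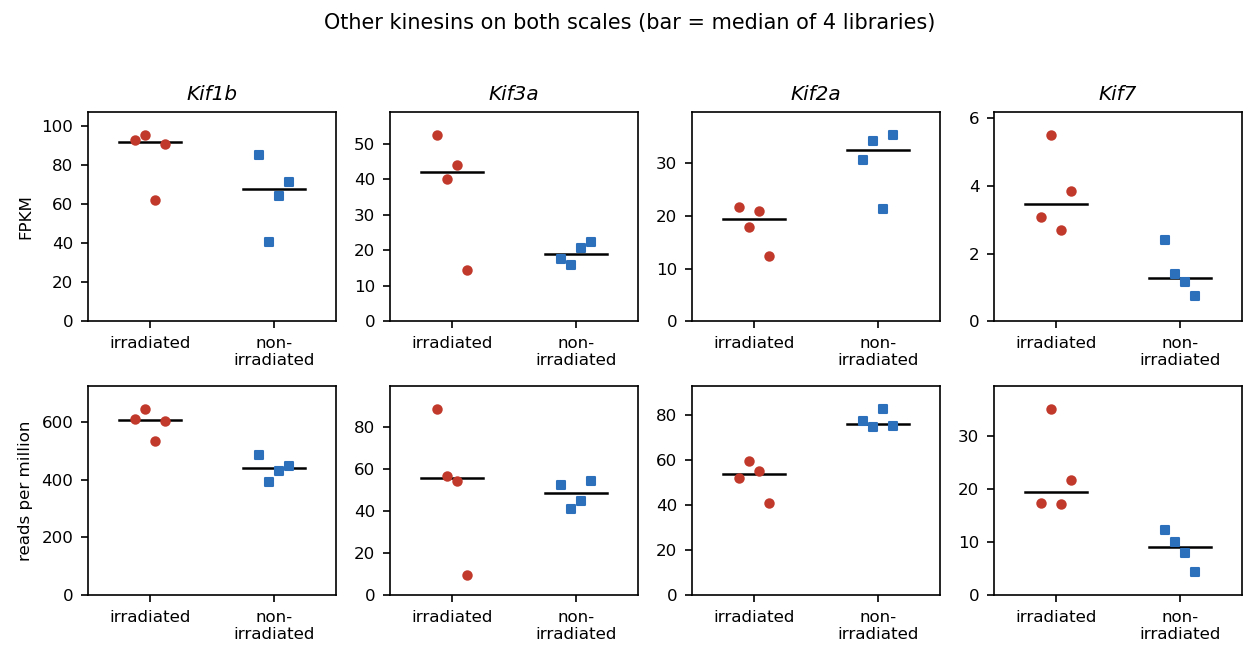
Kif1b, Kif3a, Kif2a and Kif7 in each library, in FPKM (top row) and in RPM (bottom row, reads per library total), irradiated left of nonirradiated (n = 4 libraries each, bars at the median). Kif7 keeps its groups apart on both scales, Kif1b and Kif2a on reads alone, and Kif3a on neither.

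Kif7, a kinesin of the cilium tip that regulates Hedgehog signalling (chr7:79698098-79715720, minus strand), had 3.09, 5.51, 2.70 and 3.85 FPKM in irradiated and 2.40, 1.40, 1.15 and 0.752 FPKM in nonirradiated libraries. It was the only one of the 35 kinesins whose irradiated libraries all lay above the nonirradiated ones in FPKM, as 3.99% of all genes did. Means were 3.79 ± 1.24 FPKM in irradiated and 1.42 ± 0.702 FPKM in nonirradiated skin (SD, n = 4 each), a ratio of 2.66, with a log2 change of 0.99 (SE 0.49, limma adjusted p = 0.430). RPM values of Kif7 were 17.3, 35.1, 17.2 and 21.6 in irradiated and 12.3, 9.93, 7.99 and 4.35 in nonirradiated libraries, also without overlap, and 15 units stood behind the irradiated and 28 behind the nonirradiated values. An exon of Ticrr overlaps Kif7 by 51 bp on the opposite strand. In the annotation some 50-base stretches of Kif7 also occur, in reverse orientation, in the gene 9330171B17Rik. Their share lies between that of Kif4 in Pdzd11 and that of Kif2a in Dimt1. The values of Kif7 are therefore uncertain in the same way as for Kif20a.

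Kif3a and Kif3b are the motor pair of intraflagellar transport, and Kifap3 is the subunit that joins them to cargo. Kif3a (chr11:53567379-53601967, plus strand) had 52.5, 40.0, 44.1 and 14.5 FPKM in irradiated and 17.5, 15.8, 20.5 and 22.3 FPKM in nonirradiated libraries. Irradiated replicates 1 to 3 stood above all nonirradiated libraries and replicate 4 below all of them (log2 change 0.82, SE 0.39, limma adjusted p = 0.412). FPKM per read of Kif3a varied 4.88-fold between libraries, and the read scale gave another order. In RPM it had 88.6, 56.7, 54.0 and 9.56 in irradiated and 52.1, 40.7, 44.6 and 54.1 in nonirradiated libraries, and the edgeR log2 change on reads was 0.04. Kif3b had 1.84, 8.08, 7.25 and 13.1 FPKM in irradiated and 4.03, 5.70, 4.35 and 5.14 FPKM in nonirradiated libraries, with overlap (log2 change 0.36, limma adjusted p = 0.826). Kifap3 had 13.0, 12.3, 12.3 and 21.1 FPKM in irradiated and 11.99, 8.60, 6.97 and 7.40 FPKM in nonirradiated libraries, and its groups were apart by a narrow gap (log2 change 0.68, limma adjusted p = 0.464).

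The 2 other kinesins with an unadjusted p under 0.05 were both of the family that takes microtubules apart, as is the mitotic Kif2c. Kif2a, which shortens microtubules in spindles and in nerve cell branches (chr13:106958996-107022126, minus strand), had 21.8, 17.8, 20.9 and 12.4 FPKM in irradiated and 30.7, 34.3, 21.3 and 35.4 FPKM in nonirradiated libraries. Irradiated replicate 1 lay just above nonirradiated replicate 3, and otherwise the irradiated values were lower. Means were 18.2 ± 4.22 FPKM in irradiated and 30.4 ± 6.43 FPKM in nonirradiated skin (SD, n = 4 each; log2 change -0.71, SE 0.30, limma adjusted p = 0.351). In RPM Kif2a had 52.0, 59.5, 55.2 and 40.9 in irradiated and 77.2, 74.7, 82.8 and 74.9 in nonirradiated libraries, without overlap, as 6.21% of all genes were lower on that scale. Kif2a overlaps Dimt1 on the opposite strand by 1229 bp. Kif24, which restrains the growth of cilia at centrioles in human cells (chr4:41390745-41464887, minus strand), had 1.94, 0.666, 1.23 and 0.0302 FPKM in irradiated and 3.54, 9.20, 4.82 and 1.86 FPKM in nonirradiated libraries. The groups met at irradiated replicate 1 and nonirradiated replicate 4 (log2 change -1.52, SE 0.58, limma adjusted p = 0.304), and 3 units stood behind the irradiated values.

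Kif5c, a neuronal heavy chain of kinesin-1, had 12.8, 0.397, 8.58 and 0 FPKM in irradiated and 0.495, 1.13, 0.335 and 0.619 FPKM in nonirradiated libraries. Its log2 change of 1.19 (limma adjusted p = 0.595) was the highest of the 35 and came from irradiated replicates 1 and 3, with 9 units in irradiated and 12 in nonirradiated libraries and a 5.28-fold range of FPKM per read. Kif21b had 25.4, 3.75, 7.62 and 2.54 FPKM in irradiated and 7.88, 8.36, 6.65 and 2.45 FPKM in nonirradiated libraries. Irradiated replicate 1 alone stood out, FPKM per read varied 4.95-fold, and the log2 change was 0.20 in FPKM but -0.62 in reads with edgeR. Kif6, a kinesin of motile cilia, was listed at 0 in all 4 irradiated libraries and had 0, 0, 0.794 and 5.92 FPKM in nonirradiated libraries, which came to 5 units. The remaining 11 kinesins, Kif13a, Kif16b, Kif13b, Kifc3, Kif3c, Kif26b, Kifc2, Kif1a, Kif9, Kif27 and Kif26a, had log2 changes between -0.98 (Kif26b) and 0.51 (Kif27), and the groups of each overlapped. Among them are the endosome carriers Kif13a (-0.17), Kif13b (-0.35) and Kif16b (-0.45). Kif26b, Kifc2, Kif9 and Kif26a were each listed at 0 in 2 irradiated libraries, and Kif3c, Kif1a and Kif27 in 1. Kif27 was also listed at 0 in 1 nonirradiated library.

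On reads, the sum of the other kinesins was slightly higher in irradiated skin, but most of that sum came from a few abundant genes. They took up 2058, 2138, 2197 and 1879 RPM in irradiated and 1719, 1812, 1843 and 1845 RPM in nonirradiated libraries, without overlap and with a ratio of means of 1.15. Kif1b, Kif5b and Kif21a together took up most of these reads. Their means were 599, 379 and 416 RPM in irradiated and 439, 276 and 373 RPM in nonirradiated skin. By edgeR on reads 12 of the 23 other kinesins lay below 0, with a median log2 change of -0.28, so the higher sum does not describe the typical member.

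Partners of transport kinesins lay on both sides of 0. Of 21 cargo adaptors and light chains 19 could be tested, 9 below and 10 above 0 with a median of 0.04. None passed limma, both edgeR tests or DESeq2, and 1 had an unadjusted limma p under 0.05, lower in irradiated skin, where 7.21% of all genes had one. The smallest p belonged to Rhot2, an anchor of motors on mitochondria (log2 change -1.45, limma adjusted p = 0.290), and the next to Kifap3, given above. Of 21 genes of dynein and dynactin, the motor that walks the other way, 20 could be tested, 10 below and 10 above 0 with a median of 0.05. None passed limma, and 2 had an unadjusted limma p under 0.05, both higher in irradiated skin, where 5.68% of all genes had one. DESeq2 and edgeR on units each called Dynlt3 alone, where they called 2.95% and 4.94% of all genes higher, so these counts lay near the shares over all genes. Dynlt3, a dynein light chain, had 134, 165, 74.9 and 76.2 FPKM in irradiated and 43.7, 35.5, 57.7 and 48.9 FPKM in nonirradiated libraries, without overlap (log2 change 1.2, limma adjusted p = 0.138). Dynlrb1, also a light chain, stood at 0.59 on the log2 scale (limma adjusted p = 0.362).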

How the data were processed

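Stranded libraries were made from total skin RNA after removal of ribosomal RNA, per the labels' protocols. The authors deposited FPKM values and estimated counts of 22564 genes in 1 table, per the file headers. Per the submitters' processing notes, cutadapt 1.9.3, HISAT2 2.0.4, Cufflinks, Cuffdiff and build mm10 were used. Which annotation was used, and whether counting took strand into account, is not given in the sources used here.

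The main test was limma 3.58.1 (R 4.3.3) on log2(FPKM + 1), irradiated minus nonirradiated, with trend and robust moderation, over the 13324 genes whose mean reached 0.5 FPKM. The pseudocount of 1 understates the changes of low genes. Whole reads were recovered from the deposited estimated counts by dividing by the step of each library (0.871 to 1.10), and 92.59% to 96.28% of values under 2000 steps fell within 0.02 of a whole number. These reads went into edgeR 4.0.16 and DESeq2 1.42.0 as alternatives, and edgeR was also run on units, rounded to whole numbers. Gene spans come from GENCODE M21 on the mm10 assembly, matched by gene identifier for all 35 kinesins, and promoters from RefSeq.

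The kinesins and the lists were chosen with earlier results of these data known. Values in every library are given for the mitotic kinesins, for other kinesins called in any setting or with groups that do not overlap, and for the 6 with the highest means. Kif24, Kif3b, Kif5c, Kif21b, Kif6, Kifap3, Mki67, Mlana, Dynlt3 and the spindle partners called on reads or units were added after their values were seen, Dynlt3 also as one of the 2 of smallest p in its list. Alternatives were 2 pseudocounts, 2 filters, 2 normalizations, a replicate block, a muscle covariate, moderation without robustness, the tests on reads and units, and leaving out libraries.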

Additional observations from a re-analysis of the deposited data

Results flagged for a closer look

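The 35 kinesins and the sums of both classes made 73 groups of 4 libraries with values that differed. In 8 of them the end value stood apart from the other 3 by more than Dixon's 95% critical value. For independent, normally distributed values about 1 in 20, or 3.65 groups, would do so. FPKM values with zeros and sums that reuse the members do not meet that condition, so 8 cannot be weighed against 3.65. In Kif23 the value that stood apart was replicate 4 in both groups, at 4.33 FPKM in irradiated and 17.4 FPKM in nonirradiated skin. The groups of Kif23 do not overlap with these libraries in. Kifc1 stood at 11.4 FPKM in irradiated replicate 1, with the other irradiated libraries at 0. Kif18b stood at 5.18 FPKM in nonirradiated replicate 2. Kif1b stood low at 61.8 FPKM in irradiated replicate 3, while its recovered reads there, at 536 RPM, lay above every nonirradiated library. Among the low genes Kif9 stood at 2.15 FPKM in irradiated replicate 2, Kif26b at 3.14 FPKM in nonirradiated replicate 1, and Kif6 at 5.92 FPKM in nonirradiated replicate 4. The causes were not tested.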

How the results depend on the processing

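Over all genes limma called 33, with 16 under the replicate block, 0 with the muscle covariate and 1 without irradiated replicates 1 and 4 (a setting chosen after seeing the data). Leaving out 1 library gave 4 to 72: 4 when nonirradiated replicate 2 or 3 was dropped, 9 for nonirradiated replicate 4, 18 for irradiated replicate 1 and 72 for nonirradiated replicate 1. edgeR called 132 on reads and 521 on units, and DESeq2 777. Mitotic kinesins called were 2 on units and 2 with DESeq2, and other kinesins 1 with DESeq2. The mitotic median was -2.18 with a pseudocount of 0.1 FPKM, and the other median was 0.20 with a minimum of 1 FPKM and -0.28 with edgeR on reads. The summed ratio of the other kinesins was 1.06 under quantile normalization. There Kif14 turned to 0.02 (adjusted p = 0.993), Kif21a to -0.09 (adjusted p = 0.902), Kifc2 to 0.09, Kif1a to 0.43 and Kif3c to 0.33, all by limma. Kif21b, at 0.20, turned to -0.62 with edgeR on reads, -0.56 on units, -0.57 with DESeq2, -0.39 with the muscle covariate and -0.10 without irradiated replicates 1 and 4, where Kif16b turned to 0.01. Kif3c, at -0.04, turned to 0.32 with edgeR on reads and 0.38 with DESeq2. Leaving out 1 library turned Kif21b (-0.38 to 0.58), Kif3c (-0.57 to 0.37), Kif1a (-0.32 to 0.15) and Kifc3 (-0.18 to 0.85). The causes were not tested. Over 21 settings, values of the 35 kinesins passed the threshold 5 times, reversed 24 times and otherwise kept direction and side of it, 683 times. The median of all genes was -0.11, and -0.21 under median ratio scaling. Samples with the same replicate number deviated together at correlations of -0.013 to 0.09, and 3 of 8 libraries correlated best with their own number, which falls short of the limit of 0.1 used here to treat them as pairs. The labels do not say whether equal numbers mark the same mouse. The replicate block called 0 kinesins. The small unit numbers and the zeros limit single low genes, above all Kifc1, Kif22 and Kif18b.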
